A study of Homo sapiens with 12 samples.

Results

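The genes described here anchor basal epithelial cells to the basement membrane: the integrin subunits ITGA2, ITGA3, ITGA6, ITGB1 and ITGB4, the laminin-332 chains LAMA3 and LAMB3, and the hemidesmosome proteins COL17A1 and DST. They were chosen by name, with earlier results of these data known. Every probe set of the array mapped to one of these symbols was taken. Of the 9 genes, 7 had a probe set, 1 each, out of 18404 genes in all. LAMA3 and COL17A1 were not analysed here.

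Hemidesmosomes are the rivets that hold basal keratinocytes to laminin-332. The receptor in them is integrin α6β4 (ITGA6 with ITGB4), the cytoplasmic plaque holds plectin and the dystonin form BPAG1e (from DST), and the plaque binds keratin filaments. Laminin-332 is a secreted trimer whose chains include the products of LAMA3 and LAMB3. Integrin α3β1 (ITGA3 with ITGB1) also binds laminin-332 but links to actin, and α2β1 (ITGA2 with ITGB1) binds collagen. ITGB1 pairs with many α subunits, whereas ITGB4 pairs with ITGA6 alone. p63, the product of TP63, is the transcription factor that maintains basal epithelial cells, and it is known to act on adhesion genes there.

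The study measured RNA on Affymetrix arrays in JHU-029 and FaDU, 2 established human lines of squamous carcinoma from the head and neck. Cells of each line received lentivirus with a control construct (shControl) or with shRNA directed at TP63 (shTP63), and their RNA was taken 72 hours later. The 4 groups held 3 arrays each: JHU-029 shControl, JHU-029 shTP63, FaDU shControl and FaDU shTP63. The sources used here do not give the number or sequence of the shRNAs. TP63 RNA was not analysed here, so the depth of the knockdown is unknown. The titles of 2 FaDU control arrays carry an extra word, so results in FaDU were also computed without them.

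Arrays of 1 group correlated at 0.993 to 0.997 over all probe sets, and array medians lay between 6.46 and 6.56 in log2 intensity. Of 8 squamous epithelial markers 6 were measured, and all 6 lay above the array median in every group. Their summed linear intensity was 14600 to 14900 in FaDU shControl and 9010 to 9570 in FaDU shTP63, against 29100 to 30800 and 27300 to 28900 in JHU-029. All 6 fell in FaDU, from KRT5 (log2 -1.41, adjusted p = 1.37e-08) to PERP (-0.24, adjusted p = 0.00304), and in JHU-029 S100A2 alone fell (-0.47, adjusted p = 0.0016). The sum of 4 simple epithelial markers went from 17600 to 18400 up to 20500 to 20900 in FaDU and from 6560 to 6680 up to 7110 to 7300 in JHU-029. KRT18 (0.28, adjusted p = 0.00832) and EPCAM (0.25, adjusted p = 0.0177) rose in JHU-029, and KRT8 (0.36, adjusted p = 0.00351) and KRT18 (0.31, adjusted p = 0.000446) in FaDU. The others did not pass, namely KRT8 (0.001) and CDH1 (0.005) in JHU-029, and EPCAM (0.037) and CDH1 (-0.04) in FaDU. The part of this shift between marker lists in the results was not tested. Of the fibroblast markers 1 or 2 of 8 lay above the array median, of the immune markers 1 or 2 of 5, and of the endothelial markers 0 or 1 of 5. PTPRC, PECAM1, VWF and LUM lay below it in every group, while the macrophage marker CD68 lay at 10.75 to 10.96. CD14, another myeloid marker, rose in FaDU from 6.66 to 7.17 (log2 0.51, adjusted p = 0.00102). The endothelial sum went from 517 to 542 up to 883 to 968 in FaDU, where CDH5 rose by 1.00 (adjusted p = 1.25e-06). CDH5 was the only endothelial marker that passed there. PECAM1 (0.037), VWF (-0.007), TEK (-0.012) and KDR (-0.225) did not.

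After TP63 knockdown, 3 of the 7 measured genes fell in FaDU and 0 rose. They were ITGA6, ITGB4 and ITGA3, the subunits of the laminin-binding integrins α6β4 and α3β1 apart from ITGB1. ITGA2, ITGB1, LAMB3 and DST did not pass the test in FaDU. In JHU-029 0 of the 7 passed. The test was limma across all 18404 genes with Benjamini-Hochberg adjustment and a threshold of 0.05. By this rule 14.2% of all genes fell in FaDU and 26.6% changed in either direction, against 3.15% in JHU-029. That JHU-029 share stands for 580 genes, and 229 to 273 were called without JHU-029 shControl replicate 1, 2 or 3, or without replicate 2 or 3 of its knockdown. The median change of the 7 genes was -0.13 in FaDU and -0.14 in JHU-029 on the log2 scale, beside 0.02 and 0.00 for all genes.

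**Figure D1:**
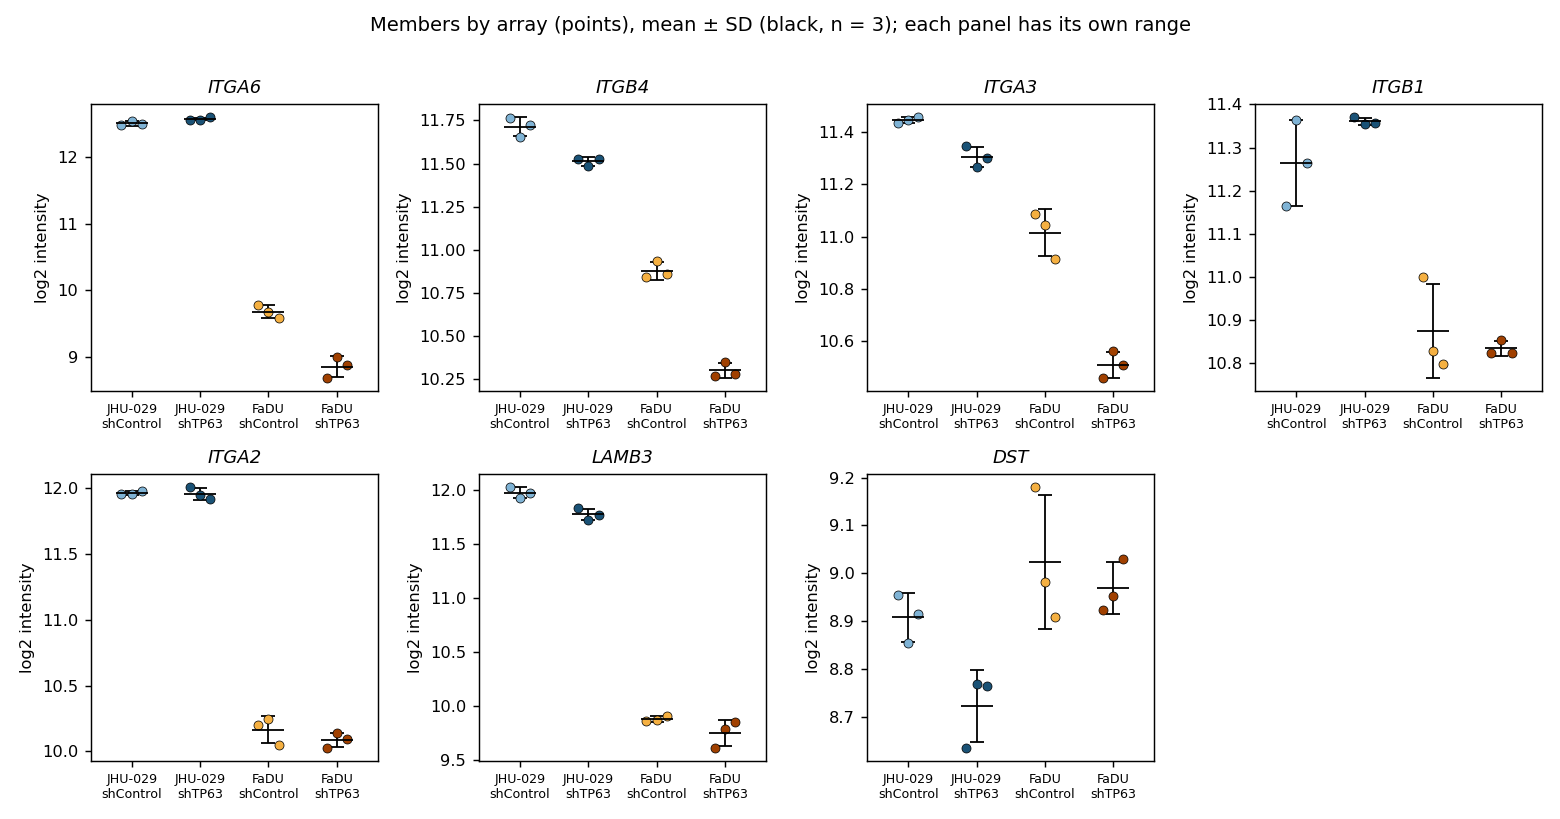
Log2 intensity of the 7 measured genes in each of the 12 arrays (points), with the mean and SD of each group (black, n = 3 arrays). ITGA6, ITGB4, ITGA3 and, narrowly, LAMB3 show separate FaDU groups, with shTP63 below shControl. The FaDU arrays lie below the JHU-029 arrays in every panel but that of DST.

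ITGA6 encodes the α6 subunit, which is shared by the hemidesmosome receptor α6β4 and by α6β1. In FaDU shControl its linear intensity was 881, 816.5 and 769.9, and in FaDU shTP63 it was 411.3, 511.2 and 469.8. The highest knockdown array was thus well below the lowest control. The mean fell 1.78-fold (log2 -0.83, SE 0.08, adjusted p = 7.22e-06), which ranked 165 among all decreases in FaDU. In bulk RNA fewer cells that express a gene and less RNA per cell cannot be told apart. In JHU-029 the controls stood at 5719, 6023 and 5828 and the knockdown arrays at 6082, 6079 and 6224, all slightly above the controls. That difference was 0.07 on the log2 scale, with a 95% interval of -0.10 to 0.23 (adjusted p = 0.811). The change in FaDU was lower than that in JHU-029 by -0.895 (SE 0.11, adjusted p = 0.00025), a test that 13.2% of all genes passed in either direction and 8.25% in this direction (4.97% in the other). Levels in JHU-029 were far higher: FaDU shControl was 7.13-fold below JHU-029 shControl, and whether so high an intensity limits the change that can be seen was not tested.

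The stretch before the gene start is shown for ITGA6, which fell in FaDU, for its partner ITGB1, which did not pass, and for LAMB3, 4.25-fold lower in FaDU than in JHU-029. The sequences are from RefSeq (GRCh38.p14), 250 bases before the most upstream listed start, read in the direction of the gene. They lie at chr2:172427086-172427335 on the plus strand for ITGA6, at chr10:32958231-32958480 on the minus strand for ITGB1 and at chr1:209652426-209652675 on the minus strand for LAMB3. Capitals mark matches to 4 motifs searched on both strands.
ITGA6: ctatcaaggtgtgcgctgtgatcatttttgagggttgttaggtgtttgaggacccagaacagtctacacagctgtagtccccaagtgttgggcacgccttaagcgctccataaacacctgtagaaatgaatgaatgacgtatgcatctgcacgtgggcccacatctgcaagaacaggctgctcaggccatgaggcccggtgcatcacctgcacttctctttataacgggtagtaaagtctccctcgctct
ITGB1: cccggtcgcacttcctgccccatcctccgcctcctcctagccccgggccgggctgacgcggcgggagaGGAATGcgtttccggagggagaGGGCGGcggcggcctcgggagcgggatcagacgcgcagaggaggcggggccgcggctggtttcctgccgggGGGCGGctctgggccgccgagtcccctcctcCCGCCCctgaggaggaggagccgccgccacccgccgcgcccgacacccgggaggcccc
LAMB3: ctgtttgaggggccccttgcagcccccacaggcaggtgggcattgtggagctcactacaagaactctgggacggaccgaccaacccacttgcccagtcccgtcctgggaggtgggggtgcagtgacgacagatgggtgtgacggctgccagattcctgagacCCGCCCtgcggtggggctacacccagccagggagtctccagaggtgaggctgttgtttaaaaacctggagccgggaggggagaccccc
The motifs were TGANTCA (AP-1), GGAATG (TEAD, the partner of YAP), GGGCGG (SP1) and a pair of p53 family core sequences 6 bases apart. The ITGA6 stretch held 0 matches to any of them. ITGB1 had 1 TEAD match and 3 SP1 matches, and LAMB3 had 1 SP1 match. Over all 35116 promoters of this length, 6.57% held the AP-1 motif, 11.9% the TEAD motif, 42.6% the SP1 motif and 4.02% the p53 family pair. Of the 7 measured genes, 5 had a promoter in the table, and 0 of these 5 held the AP-1 motif or the p53 family pair. These are matches of letters in 1 short window, and RefSeq lists further starts for ITGA6, ITGB1, LAMB3 and DST.

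ITGB4, the β4 subunit whose long cytoplasmic tail recruits plectin, fell in FaDU as well. Its FaDU control arrays read 1832, 1961 and 1855, and its knockdown arrays read 1234, 1303 and 1244. The groups did not overlap, and the mean fell 1.49-fold (log2 -0.58, SE 0.05, adjusted p = 6.33e-06). In JHU-029 the controls read 3475, 3228 and 3381, and the knockdown arrays 2946, 2862 and 2956, again with all 3 below. The difference there was -0.20 (95% interval -0.32 to -0.09) with an adjusted p = 0.063. It missed the threshold in the fit as designed and passed under 5 of 24 alternatives (adjusted p from 0.00323 to 0.0463). The change was lower in FaDU than in JHU-029 by -0.38 (SE 0.07, adjusted p = 0.00552).

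ITGA3, the α subunit of the laminin receptor α3β1, had control values of 2173, 2111 and 1932 in FaDU and knockdown values of 1411, 1511 and 1458. The 2 groups were separate, and the mean fell 1.42-fold (log2 -0.50, SE 0.06, adjusted p = 3.45e-05). In JHU-029 the controls lay close together at 2765, 2789 and 2806, above 2601, 2463 and 2519 after knockdown. The difference of -0.14 (95% interval -0.26 to -0.02) did not pass (adjusted p = 0.25), except with array weights (-0.16, adjusted p = 0.0365). The changes of the 2 lines differed by -0.36 (SE 0.08, adjusted p = 0.0101). Without the 2 FaDU controls with the extra title word that difference was -0.26 and missed the threshold (adjusted p = 0.0827), while the falls of ITGA6, ITGB4 and ITGA3 in FaDU still passed.

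ITGB1, the common β subunit, did not pass in either line. In FaDU the controls were 2046, 1817 and 1779 and the knockdown arrays 1812, 1851 and 1813, so the groups overlapped. The difference was -0.04 with a 95% interval of -0.18 to 0.10 (adjusted p = 0.712), which leaves out a fall of the size seen for ITGA3 or ITGA6. In JHU-029 it was 0.10 (95% interval -0.05 to 0.24, adjusted p = 0.595).

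ITGA2, the collagen-binding α subunit, also gave values within the spread of the arrays. FaDU controls were 1175, 1215 and 1060 against 1044, 1128 and 1093 after knockdown, a difference of -0.08 (95% interval -0.21 to 0.05, adjusted p = 0.397). JHU-029 controls were 3969, 3973 and 4034 against 4116, 3948 and 3870, a difference of -0.01 (95% interval -0.14 to 0.13, adjusted p = 0.986). The knockdown arrays lay on both sides of the controls in JHU-029.

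LAMB3, the β3 chain of laminin-332, was lower on average after knockdown in both lines without passing in either. JHU-029 controls were 4167, 3884 and 4010 against 3643, 3388 and 3488, and the 3 knockdown arrays all lay below. The difference was -0.20 (95% interval -0.34 to -0.06, adjusted p = 0.141). It passed when the prior variance could follow the mean intensity (adjusted p = 0.0251) and with array weights (adjusted p = 0.0198). In FaDU the controls were 933.8, 939 and 965.7 against 785.7, 884 and 924.3, again all lower. The difference there was -0.13 (95% interval -0.27 to 0.01, adjusted p = 0.159). The changes of the 2 lines differed by 0.06 (95% interval -0.13 to 0.26, adjusted p = 0.73).

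DST, which encodes the plaque protein BPAG1e beside longer forms of muscle and nerve, was measured by 1 probe set that does not separate these forms. In JHU-029 the controls were 496.3, 462.9 and 482.6 and the knockdown arrays 397.5, 436 and 435, all 3 lower. The difference of -0.19 (95% interval -0.34 to -0.03) did not pass (adjusted p = 0.24). In FaDU the controls spread from 480.5 to 580.2 around knockdown values of 485.7, 495.2 and 522.8, a difference of -0.06 (adjusted p = 0.642). Its sign turned without FaDU shControl replicate 1 (0.02), as did that of ITGB1 (0.02).

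Counted by arrays alone, 4 of the 7 genes had all 3 knockdown arrays below all 3 controls in JHU-029 (ITGA3, ITGB4, LAMB3 and DST), and ITGA6 had all 3 above. Of all genes 11.7% were placed below in this way and 13.3% above. In FaDU the 4 genes below were ITGA6, ITGB4, ITGA3 and LAMB3, beside 18% of all genes.

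**Figure D2:**
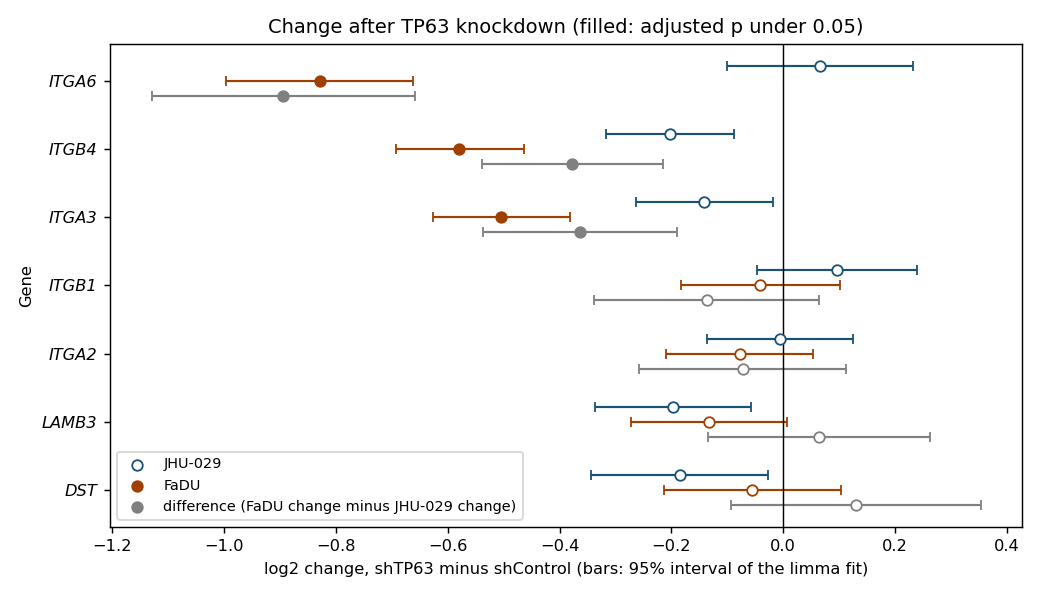
Log2 change after TP63 knockdown in JHU-029 (blue) and FaDU (brown) and the difference between these changes (grey) for each gene, with 95% intervals of the limma fit; filled points have an adjusted p under 0.05. The FaDU points of ITGA6 (-0.83), ITGB4 (-0.58) and ITGA3 (-0.50) and their differences are filled, and the intervals of ITGB1 and ITGA2 include 0 in both lines.

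The balance between integrin partners was followed as their log2 ratio within each array. Relative to the mean of JHU-029 shControl, the ITGA6 to ITGB4 ratio was -0.08, 0.10 and -0.02 in JHU-029 shControl and 0.24, 0.29 and 0.27 in JHU-029 shTP63. In FaDU it was -1.86, -2.07 and -2.07 in the controls and -2.39, -2.15 and -2.21 after knockdown. The ratio thus shifted by 0.27 in JHU-029 and by -0.25 in FaDU, with separate groups in both. The ITGA6 to ITGB1 ratio shifted by -0.79 in FaDU and by -0.03 in JHU-029, where the groups overlapped. The ITGA3 to ITGB1 ratio shifted by -0.46 in FaDU and by -0.24 in JHU-029, with separate groups in both lines, and the ITGA2 to ITGB1 ratio overlapped in both. With 3 arrays against 3, a two-sided exact permutation test cannot go below p = 0.1, which was the value for each shift with separate groups. Separate groups were common for single genes, at 11.7% below and 13.3% above in JHU-029 and 18% and 18.1% in FaDU. The share of gene pairs with separate ratios was not computed, so these shifts cannot be called particular to the partners. In JHU-029 neither ITGA6 (adjusted p = 0.811) nor ITGB4 (adjusted p = 0.063) was called by limma.

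**Figure D3:**
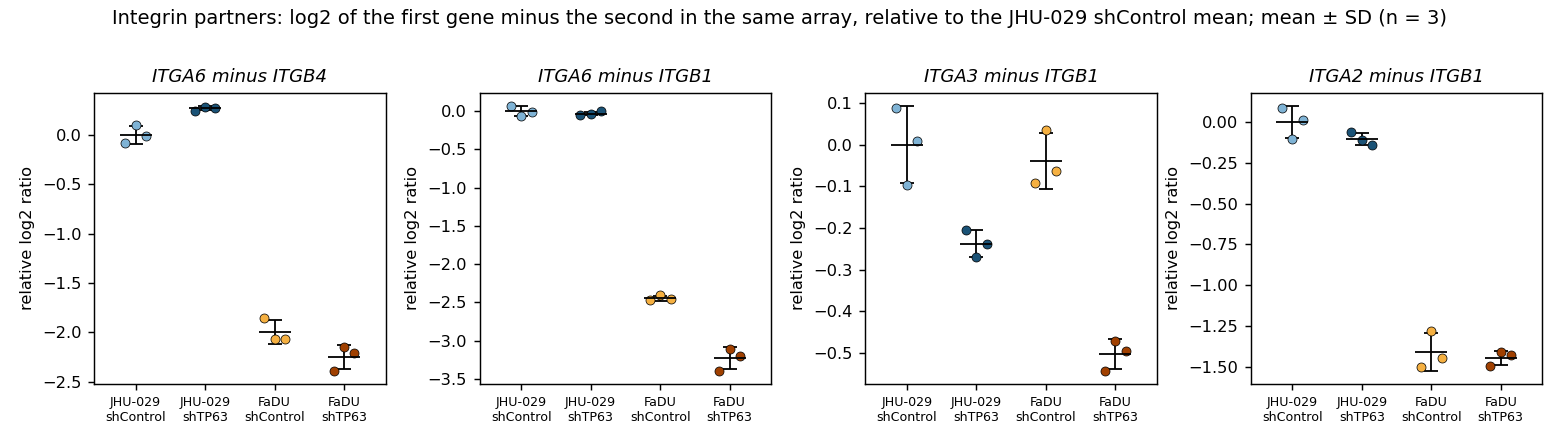
Log2 ratio of integrin partners within each array (points), set to 0 at the JHU-029 shControl mean, with the mean and SD of each group (n = 3 arrays). The ITGA6 to ITGB4 ratio lies higher after knockdown in JHU-029 (0.27) and lower in FaDU (-0.25), while the ITGA2 to ITGB1 ratio overlaps between the groups of each line.

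Under the control vector, 6 of the 7 genes were lower in FaDU than in JHU-029 and 0 were higher, against 30.4% of all genes lower and 63.8% different in either direction. The gap was widest for ITGA6 (log2 -2.83, SE 0.08, adjusted p = 7.46e-12). LAMB3 stood at 4020 ± 141 (SD, n = 3) in JHU-029 and at 946.2 ± 17.1 in FaDU, which is 4.25-fold lower (adjusted p = 2.29e-11). ITGA2 was 3.48-fold lower (adjusted p = 4.57e-11), and ITGB4 was 1.79-fold lower (adjusted p = 1.47e-08). Smaller gaps were found for ITGA3 (1.35-fold, adjusted p = 1.92e-05) and ITGB1 (1.31-fold, adjusted p = 0.000167). DST did not pass, at 480.6 ± 16.8 in JHU-029 and 522.2 ± 51.9 in FaDU (log2 0.12, adjusted p = 0.184). The median over the 7 genes was -0.84, beside 0.05 for all genes.

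Ordered by mean, the groups ran FaDU shTP63, FaDU shControl and then both JHU-029 groups for every gene except DST. For ITGA3, ITGA6, ITGB4 and LAMB3 neighbouring groups did not overlap at any step. For ITGA2 and ITGB1 only the step between the lines was free of overlap. The share of all genes with such separate groups was not computed, so these patterns cannot be called particular to the members. For DST the lowest group was JHU-029 shTP63, and the groups above it overlapped each other. In the shTP63 arrays the gap between the lines in means was -3.73 for ITGA6, -1.21 for ITGB4 and -0.79 for ITGA3, against -2.83, -0.84 and -0.43 under shControl.

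With the mean of each line subtracted, the 3 genes that fell followed one another over the 12 arrays, at Pearson r = 0.968 for ITGA3 with ITGB4, 0.928 for ITGA3 with ITGA6 and 0.879 for ITGA6 with ITGB4. ITGB1 followed none of them closely (r = 0.178 with ITGA3, 0.355 with ITGA6 and -0.05 with ITGB4), and LAMB3 reached 0.688 with ITGB4. These are descriptions over arrays that share 4 groups, so the group means enter each r. The 3 genes were also grouped by their fall in FaDU, so their high r with one another follows in part from that choice. Over all genes, those most like ITGA6 by this measure were CD44, the hyaluronan receptor (r = 0.989), the transcription factor E2F5 (0.987) and TAF1A (0.986). CD44 changed by -0.86 in FaDU and 0.09 in JHU-029. Most like ITGB4 were the volume-regulated channel subunit LRRC8A (0.996), the mitochondrial enzyme PCK2 (0.992) and the heparan sulfate enzyme NDST1 (0.99). Most like ITGA3 were FNBP4 (0.989), the ribosome assembly factor BYSL (0.986) and the glycosyltransferase GALNT1 (0.983). The nearest genes reached 0.944 for DST (TULP4), 0.934 for ITGA2 (PAQR5), 0.911 for LAMB3 (NEFM) and 0.867 for ITGB1 (LINC02903).

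The other adhesion genes moved both ways. Of 97 genes in 4 further lists 93 were measured, and in FaDU 17 rose and 16 fell, beside 12.4% and 14.2% of all genes, with a median change of 0.02 equal to that of all genes at this rounding. In JHU-029 4 rose and 0 fell, beside 1.8% of all genes rising. These lists were basement membrane and hemidesmosome partners, other integrin subunits, adaptors of integrin adhesions, and further integrin ligands with enzymes that process laminin.

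**Figure D4:**
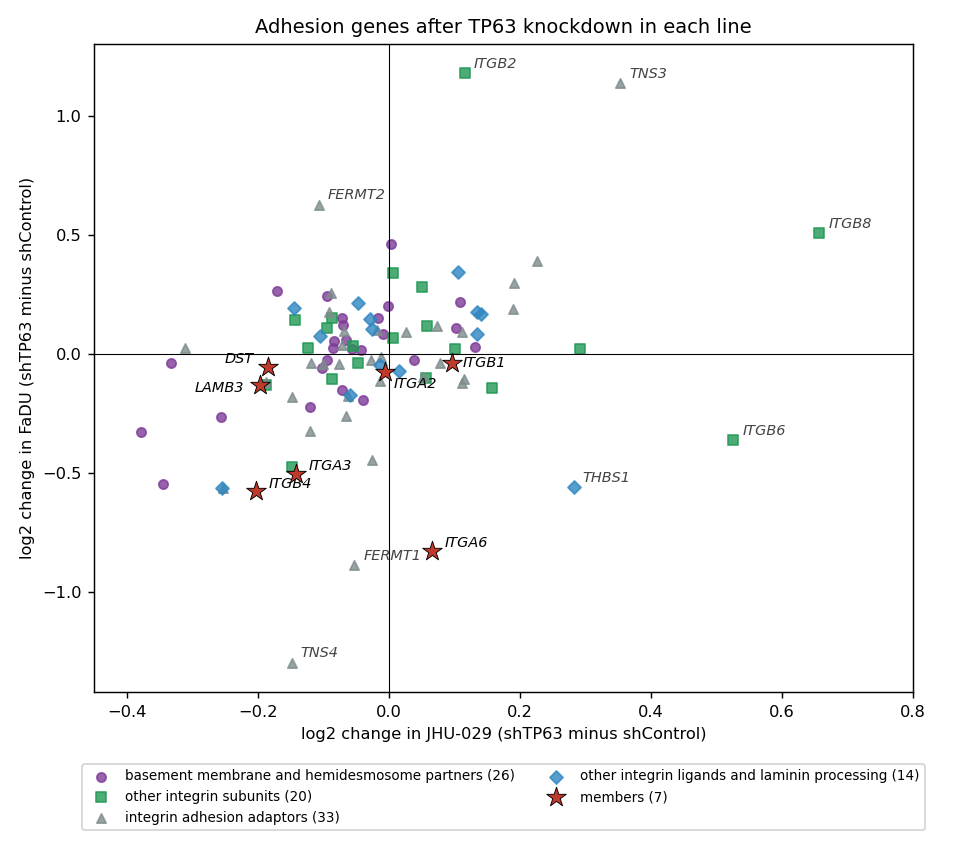
Log2 change after TP63 knockdown in JHU-029 (x axis) against FaDU (y axis) for the 7 genes (stars) and 93 other adhesion genes (symbols by list). ITGA6, ITGB4 and ITGA3 lie between -0.83 and -0.50 on the FaDU axis, TNS4 and FERMT1 lie lower still, and ITGB6 and THBS1 are above 0 in JHU-029 and below 0 in FaDU.

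Among 26 measured basement membrane and hemidesmosome partners, 4 rose and 5 fell in FaDU and 0 changed in JHU-029. Of all genes 12.4% rose and 14.2% fell in FaDU. The plaque protein PLEC, which links β4 to keratin, stood at 0.05 in FaDU (SE 0.08, adjusted p = 0.675) and -0.08 in JHU-029 (adjusted p = 0.739). CD151, the tetraspanin that accompanies α3β1 and α6β4, fell by 0.23 in FaDU (SE 0.06, adjusted p = 0.0135). COL7A1, the collagen of anchoring fibrils, fell by 0.27 (SE 0.08, adjusted p = 0.0243). In JHU-029 COL7A1 was at -0.26 (adjusted p = 0.116), and its changes in the 2 lines differed by less than the test could call (-0.01, SE 0.11, adjusted p = 0.975). PLEC, CD151 and COL7A1 are named for their place in the hemidesmosome and were picked with their values known. The laminin chain LAMB2 rose by 0.26 in FaDU (SE 0.06, adjusted p = 0.00739), was at -0.17 in JHU-029 (adjusted p = 0.201), and differed between the lines by 0.43 (adjusted p = 0.00669). The laminin-binding linker NID1 fell by 0.55 in FaDU (SE 0.11, adjusted p = 0.00263), from a control mean of 6.29 below the array medians. Without the 2 FaDU controls with the extra title word it missed the threshold (-0.47, adjusted p = 0.0573). NID1 stood at -0.34 in JHU-029 (adjusted p = 0.136) and COL4A5 at -0.38 (adjusted p = 0.0972), neither of them called there. FREM2 rose by 0.46 (adjusted p = 0.0278) and COL4A5 fell by 0.33 (adjusted p = 0.0424), both with FaDU means below the array medians. The FREM2 call was lost without FaDU shControl replicate 1 or 3 or FaDU shTP63 replicate 2 or 3 (adjusted p of up to 0.108). The COL4A5 call was lost without FaDU shControl replicate 1 or 2, FaDU shTP63 replicate 2 or 3, JHU-029 shControl replicate 2 or 3, or any JHU-029 shTP63 replicate (up to 0.165). Without the 2 FaDU controls with the extra title word, COL4A5 was at -0.16 (adjusted p = 0.473) and FREM2 at 0.59 (adjusted p = 0.0779).

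Among 20 other integrin subunits, 2 rose in JHU-029, and 4 rose and 2 fell in FaDU. The shares of all genes were 1.8% rising in JHU-029, and 12.4% rising and 14.2% falling in FaDU. ITGB6, the β subunit of the TGF-β activating integrin αvβ6, moved in opposite directions, as 0.185% of all genes did with a call in both lines. In JHU-029 it was 1496, 1392 and 1348 in the controls and 1916, 2097 and 2088 after knockdown, a rise of 0.53 (SE 0.08, adjusted p = 0.0045). In FaDU it was 425.4, 373.5 and 395.6 against 283.5, 349.4 and 297.5, a fall (log2 -0.36, SE 0.08, adjusted p = 0.00534). That fall missed the threshold without the 2 FaDU controls with the extra title word (-0.36, adjusted p = 0.0587). The difference between the lines was -0.89 (SE 0.12, adjusted p = 0.000438). ITGB8, the β subunit of αvβ8, rose in both lines (1.83% of all genes were called in both with the same sign). The rise was 0.66 for JHU-029 (SE 0.07, adjusted p = 0.000599) and 0.51 for FaDU (SE 0.07, adjusted p = 0.000264), and the difference of -0.15 did not pass (adjusted p = 0.417). ITGB2, the β subunit of leukocyte integrins, went from 277.8, 279.4 and 270.2 to 634.9, 612.2 and 623.9 in FaDU, a rise of 1.18 (SE 0.05, adjusted p = 1.89e-08). In JHU-029 ITGB2 was at 0.12 (adjusted p = 0.303), and the lines differed by 1.06 (adjusted p = 4.68e-06). Of the measured immune markers CD14 alone passed in FaDU. CD68 (0.113, adjusted p = 0.196), PTPRC (0.134, adjusted p = 0.112), CD3E (0.3, adjusted p = 0.0861) and MS4A1 (-0.143, adjusted p = 0.422) did not. Whether the rises of CD14 and ITGB2 are linked was not tested. ITGA5, the fibronectin receptor subunit, fell by 0.48 in FaDU (SE 0.06, adjusted p = 0.000105). It was at -0.15 in JHU-029 (adjusted p = 0.275). Its difference of -0.33 (adjusted p = 0.0268) was lost without JHU-029 shControl replicate 1 or 2, JHU-029 shTP63 replicate 2 or 3, FaDU shControl replicate 3 or FaDU shTP63 replicate 3 (up to 0.0752), and without the 2 FaDU controls with the extra title word (0.0962).

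Among 33 adaptors of integrin adhesions, 7 rose and 6 fell in FaDU, beside 12.4% and 14.2% of all genes. TNS3 alone rose in JHU-029, beside 1.8% of all genes. Of the kindlins, which activate integrins, FERMT1 fell and FERMT2 rose in FaDU, and FERMT3 did not pass (-0.12, adjusted p = 0.567). FERMT1, the kindlin of epithelium, went from 708.6, 709.8 and 691.6 to 382.5, 374.7 and 383, a fall of 0.89 on the log2 scale (SE 0.05, adjusted p = 1.41e-07). FERMT2 rose there by 0.63 (SE 0.07, adjusted p = 3.58e-05). In JHU-029 FERMT1 was at -0.05 (adjusted p = 0.733) and FERMT2, with group means of 4.35 and 4.24 below the array medians, at -0.11 (adjusted p = 0.576). Of 4 tensins, which bind β integrin tails, TNS4 fell by 1.30 in FaDU (SE 0.10, adjusted p = 1.7e-06), whereas TNS3 rose by 1.14 (SE 0.06, adjusted p = 8.65e-08). TNS1 rose there by 0.18 (adjusted p = 0.0318), and TNS2 stood at -0.03 (adjusted p = 0.834). In JHU-029 TNS3 rose by 0.35 (SE 0.06, adjusted p = 0.00623) and TNS4 was at -0.15 (adjusted p = 0.588). The changes differed between the lines by -0.84 for FERMT1 (adjusted p = 1.82e-05), 0.73 for FERMT2 (adjusted p = 0.000561), -1.15 for TNS4 (adjusted p = 0.000263) and 0.79 for TNS3 (adjusted p = 0.000102).

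**Figure D5:**
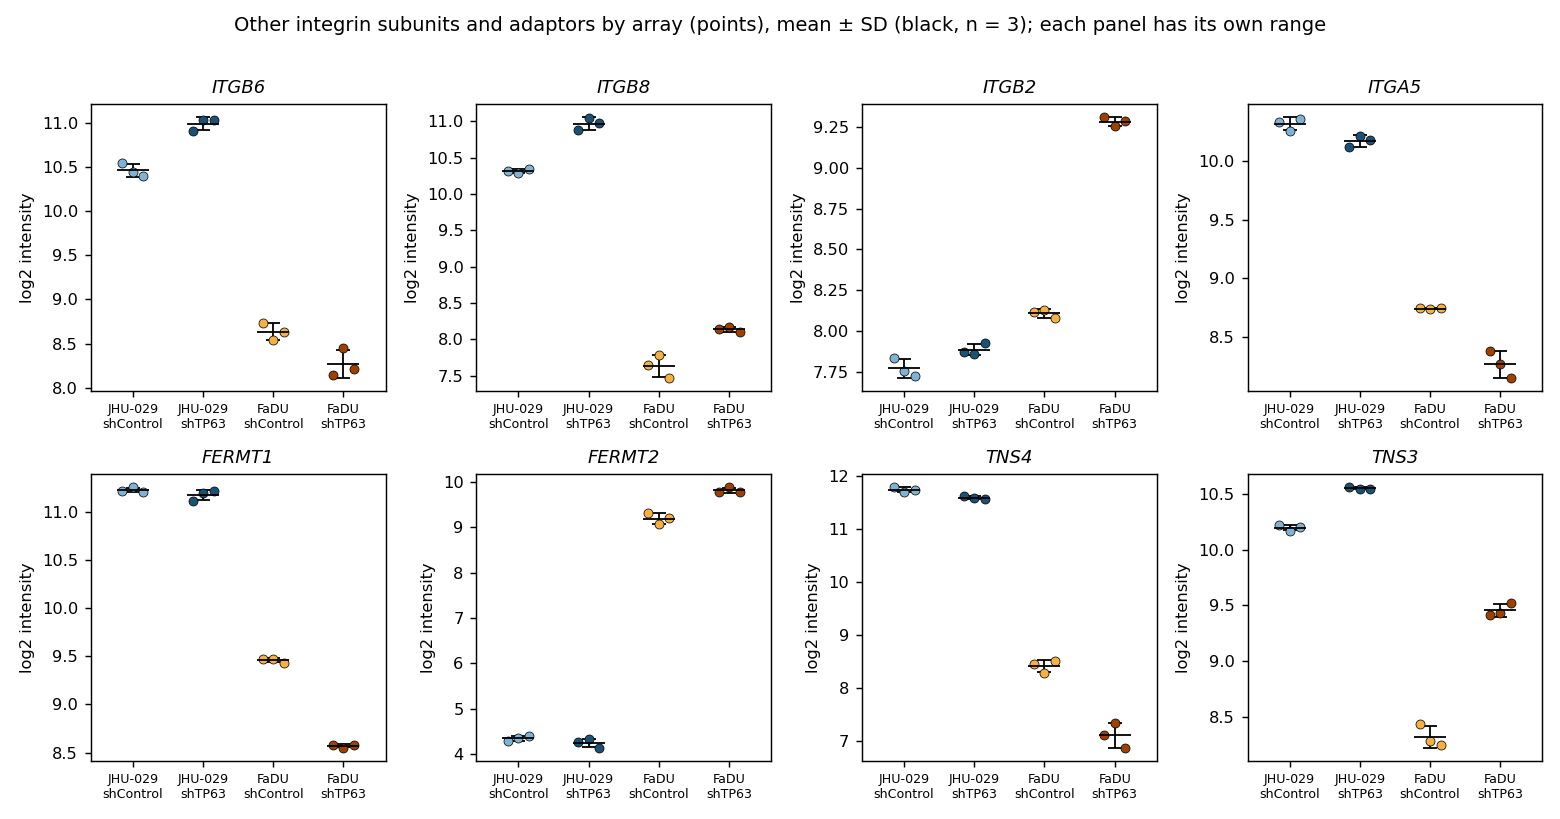
Log2 intensity of 4 other integrin subunits and 4 adaptors in each array (points), with the mean and SD of each group (black, n = 3 arrays). ITGB6 is higher after knockdown in JHU-029 and lower in FaDU, FERMT1 and TNS4 are lower in FaDU, and FERMT2 and TNS3 are higher there.

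Among 14 further ligands and laminin-processing enzymes, 2 rose and 3 fell in FaDU, beside 12.4% and 14.2% of all genes. In JHU-029 1 rose, beside 1.8% of all genes. The matrix protein THBS1 fell by 0.56 in FaDU (SE 0.06, adjusted p = 1.68e-05). It rose by 0.28 in the other line (SE 0.06, adjusted p = 0.0199), a difference of -0.84 between the lines (adjusted p = 5.29e-05). The rise in JHU-029 was lost without any 1 of the 6 JHU-029 arrays (adjusted p from 0.0599 to 0.084). TNC, a ligand of several β1 and αv integrins, fell by 0.57 in FaDU (SE 0.07, adjusted p = 6.76e-05) from a control mean of 6.04, below the array medians. In JHU-029 TNC was at -0.25 (adjusted p = 0.0768), and the difference of -0.31 between the lines did not pass (adjusted p = 0.0561). Fibronectin (FN1) rose by 0.34 in FaDU (SE 0.06, adjusted p = 0.00102), also from below the medians (6.09). COL6A1 rose by 0.21 (SE 0.06, adjusted p = 0.0133), a call lost without FaDU shControl replicate 1 (adjusted p = 0.052) or without both FaDU controls with the extra title word (0.0665).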

How the data were processed

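The deposited table gives intensity on a linear scale for 32321 probe sets, which the authors made with RMA, a method that corrects background, equalises array distributions and summarises probes. RMA and R 2.15.1 are named in the submitters' processing notes. Which arrays entered one RMA run is not stated there. The deposited values were put on a log2 scale here. Probe sets with 1 symbol (19158) were kept, and the one with the highest mean stood for a gene (18404 genes; 0 symbols changed through 19128 Entrez matches). Limma 3.58.1 in R 4.3.3 fitted the 4 groups of 3 arrays (8 residual and 4.17 prior degrees of freedom), with no filter, fold minimum or block. The fit was also tried on simulated data with independent normal noise for each gene, which does not bear on the calls made here. P-values are two-sided, adjusted over all genes. Array number limits the precision, and since the labels name no separate cultures, the p-values cover the spread among these arrays, which may be technical.

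The members and lists were chosen with earlier results of these data known. From each further list up to 2 genes per direction and line were named, those with the largest change past the threshold, and for each member the 3 genes with the highest line-centred correlation. CD151, COL7A1, PLEC, ERBIN, FERMT3, TNS1, TNS2, the marker genes and the further genes that differed between the lines were named outside this rule. The alternatives were 2 other scalings, an offset of 16, a filter on dim probe sets, 2 probe set rules, a variance trend, separate fits, array weights, 2 replicate blocks and omission of arrays. Some genes of the further lists were not analysed here.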

Additional observations from a re-analysis of the deposited data

Results flagged for a closer look

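Among the genes described in full, the following changes after TP63 knockdown differed between FaDU and JHU-029 by the limma test of the difference itself (FaDU change minus JHU-029 change, log2), which 13.2% of all genes passed. Among the 7 measured anchoring genes they were ITGA6 (-0.895), ITGB4 (-0.377) and ITGA3 (-0.363). Of the 5 other integrin subunits that passed they were ITGB2 (1.062), ITGB6 (-0.89) and ITGA5 (-0.33), beside ITGB5 (0.33, adjusted p = 0.0107) and ITGAV (0.286, adjusted p = 0.0404). Of the 7 adaptors that passed they were TNS4 (-1.152), FERMT1 (-0.835), TNS3 (0.785) and FERMT2 (0.733), beside PXN (-0.421, adjusted p = 0.0039), ILK (0.343, adjusted p = 0.0213) and TNS1 (0.267, adjusted p = 0.0411). In the matrix lists THBS1 (-0.843), LAMB2 (0.431) and COL4A2 (0.335, adjusted p = 0.03) passed. The log2 ratio of ITGA6 to ITGB4 within an array shifted by 0.268 in JHU-029, with all 3 knockdown arrays above the controls, and by -0.25 in FaDU, with all 3 below. The difference between these shifts was not tested, and the share of all gene pairs with such shifts was not computed. Groups of 3 arrays are too small for a test of single outlying arrays.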

How the results depend on the processing

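The calls of ITGA6, ITGB4 and ITGA3 in FaDU held under all 24 alternatives, with changes from -0.90 to -0.74, from -0.60 to -0.55 and from -0.55 to -0.40. The differences between the lines held for ITGA6 and ITGB4 under all 23 alternatives that gave one. In JHU-029 the count of called members, 0 as designed, was 1 with cyclic loess, with log2(value + 16) and with dim genes left out, 2 with a variance trend and 3 with array weights. The number of all genes called in JHU-029 went from 580 to 903 with dim genes left out, 1015 with the trend, 2017 with array weights, and 229 to 273 with any 1 of 5 JHU-029 arrays left out. Testing every probe set separately gave 17975 calls between the control lines, against 11739 genes, over more items tested. Other adhesion genes called in FaDU numbered 20 with each line fitted alone, against 33. The cause was not tested.

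Samples of 1 number within a line showed no shared deviation (correlations of -0.339 to 0.0134). This cannot settle whether they were paired, which the labels do not say. With a fixed replicate block within line the ITGA3 difference of -0.363 missed the threshold (adjusted p = 0.0534), as did ITGB6 (0.0594), TNS3 (0.0713) and THBS1 (0.109) in JHU-029, ITGA5 between the lines (0.0877) and COL6A1 in FaDU (0.0551). The fixed block called 172 genes in JHU-029 and 1395 for the difference, against 2433 without it, and 9 other adhesion genes for the difference against 15.

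Signs turned only for small changes that had not passed. Without the 2 FaDU controls with an extra title word, the change in FaDU was 0.06 for DST, 0.038 for ITGA2 and 0.037 for ITGB1, the difference between the lines was 0.043 for ITGA2 and 0.009 for ITGB8, and the ITGA2 to ITGB1 ratio in FaDU shifted by 0.001. With 1 FaDU control array left, calls were also lost there in FaDU for NID1 (adjusted p = 0.0573), ITGB6 (0.0587), COL6A1 (0.0665), FREM2 (0.0779) and COL4A5 (0.473), and between the lines for ITGA3 (-0.263, 0.0827) and ITGA5 (0.0962). Leaving out 1 array gave ranges in FaDU of -0.113 to 0.023 for DST and -0.079 to 0.022 for ITGB1, and of -0.03 to 0.014 for ITGA2 in JHU-029. The ITGA6 to ITGB1 shift in JHU-029 ranged from -0.059 to 0.002 and the ITGA2 to ITGB1 shift in FaDU from -0.082 to 0.027. Among other adhesion genes 1 to 15 were called in JHU-029 over the alternatives that kept all arrays, against 4.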
